A study of Mus musculus with 6 samples.

Results

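Trim12a, Trim5, Tescl, Ctse, Ppm1n and Tbx6 are 6 mouse genes that an earlier look at these arrays had picked out as brighter where mast cells carried the Pla2g3-/- label. All noncontrol probes whose gene name was a member or its synonym were taken, which gave 9 probes for 6 of the 29581 genes on the array. The values that picked the members are the ones described here for both genotype comparisons, so those differences are a description and support nothing. On the brightest probes 5 members were brighter on both labelled arrays than on all others. Tbx6 was not brighter under the label without fibroblasts and was as bright on an array that did not carry the label.

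Mast cells grown from mouse bone marrow gave the messenger RNA for 6 single-colour arrays, 1 per group, each hybridised with RNA pooled from 3 samples. The study set mast cell Pla2g3, a secreted phospholipase A2, and fibroblast Lpar1, a receptor for lysophosphatidic acid, against the maturation of mast cells in contact with fibroblasts. All cultures were raised in interleukin-3 (10 ng/ml). One pair of arrays held Pla2g3+/+ and Pla2g3-/- mast cells without fibroblasts. Another pair held the same genotypes after 4 days with stem cell factor (100 ng/ml) on wild-type Swiss 3T3 cells, a long-established fibroblast line from mouse embryos. The last pair held wild-type mast cells after the same coculture on Lpar1+/+ or Lpar1-/- Swiss 3T3 fibroblasts, the latter made by CRISPR/Cas9 and single-cell cloning. The sex and age of the mice, the deleted part of the Pla2g3 allele, and whether cultures without fibroblasts received stem cell factor are not given in the sources used here. It is also not given there whether the arrayed mast cells were taken as nonadherent cells or with beads against CD117 (Kit).

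A level below is the log2 signal of a probe relative to the 75th percentile of its array, so 0 is the 75th percentile. Levels of different probes are not compared, except in the summed levels of markers. These sums add linear levels of different probes and so lean on the brightest. A difference is between levels of the same probe, and 2-fold, or 1 on the log2 scale, was the size counted as higher or lower. Where the dimmer array was not well above background by the scanner software's mark, the fold is a lower bound, written "at least". It is then taken against the dim probe's own signal or the array's lowest signal with that mark, whichever is higher. In the main setting log2 differences and counts took dim arrays at the same bound. A bound under 2-fold can therefore hide a larger difference. With 1 array per group no difference has a replicate check and no p-value is given. The 75th percentile of the signal was 1230 to 1520 and the share of spots well above background was 70.7% to 80.4%. The pair of wild-type cocultures, which lay on the same slide, differed with a standard deviation of 0.29 on the log2 scale over 24012 genes. Arrays without fibroblasts lay on the other slide, so coculture and slide cannot be told apart. All 14 mast cell markers were well above background on all 6 arrays.

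The targeted gene itself, Pla2g3, did not match its label. Its brightest probe (chr11:3394109-3394168, mm9) had levels of -6.31 (Pla2g3+/+) and 0.51 (labelled Pla2g3-/-) without fibroblasts, and of -7.31 and -1.84 in coculture. The signal was therefore 113-fold and 44.4-fold higher where the label says the gene is disrupted. A second probe (chr11:3399294-3399353) had bounds of at least 42.8-fold without fibroblasts and at least 23.6-fold in coculture, again higher under the label. The third (chr11:3393127-3393186) was at least 16.1-fold higher without fibroblasts but at least 2.76-fold in coculture, and 1.42-fold against the other wild-type coculture. Whether the probes lie in the deleted part is not known, and a probe outside it checks nothing. Both arrays are written as the arrays labelled Pla2g3-/- throughout, and every direction below rests on that label.

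Trim5 and Trim12a belong to the tripartite motif (TRIM) family, ubiquitin ligases of which the primate TRIM5 protein is known for binding incoming retroviral capsids. In the mouse the TRIM5-related genes lie side by side in a cluster on chromosome 7. Tescl is a calcium-binding relative of tescalcin, Ctse encodes cathepsin E, an aspartic protease of the endosomes of immune cells, Ppm1n is a member of the metal-dependent protein phosphatases, and Tbx6 is a T-box transcription factor known from the presomitic mesoderm of the embryo.

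The probes through which the members were read are shown first, since each gene here rests on 1 or 2 stretches of 60 bases. None of the 9 shares 20 bases with any other probe on the array. Coordinates are those of the files (mm9), and the sequences are in the probe's own orientation, in lower case because no base is singled out. The first 30 bases are given, or the whole probe where so marked. Exon or untranslated region is not stated, since no annotation of this build was used.
Trim12a, brightest probe, chr7:111448499-111448558, minus strand: catagctaagggctgtcacttacatcaggt
Trim12a, other probe, whole, chr7:111452759-111452818, minus strand: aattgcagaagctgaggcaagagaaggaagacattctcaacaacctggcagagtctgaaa
Trim5, chr7:111412427-111412486, minus strand: ttatggaggggtatgtatgtatacttagtg
Tescl, brightest probe, chr7:25118115-25118174, minus strand: gcagactcttgcagcagctacagggtacat
Tescl, other probe, whole, chr7:25118222-25118281, minus strand: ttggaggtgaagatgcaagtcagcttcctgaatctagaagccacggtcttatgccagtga
Ctse, chr1:133571990-133572049, plus strand: gacctgtttttacagttggtttatttgtat
Ppm1n, chr7:19862172-19862231, minus strand: ttttttaacctatgctacaaggaggtggtg
Tbx6, brightest probe, chr7:133929000-133929059, plus strand: caagccatgccaatttgttctcaggatcag
Tbx6, other probe, chr7:133928828-133928887, plus strand: ttgatttcactccaccccctctggcttcaa

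Of the 6 members, 5 were at least 2-fold higher under the label without fibroblasts, where 0.414% of 21746 genes were, and 0 were lower, against 1.58% of genes. In coculture 6 of 6 were higher, where 9.1% of 22493 genes were, and 0 were lower, against 10.4%. Nothing is read from these counts, because the members were picked on these contrasts. The genotype contrasts with and without fibroblasts share no array.

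**Figure D1:**
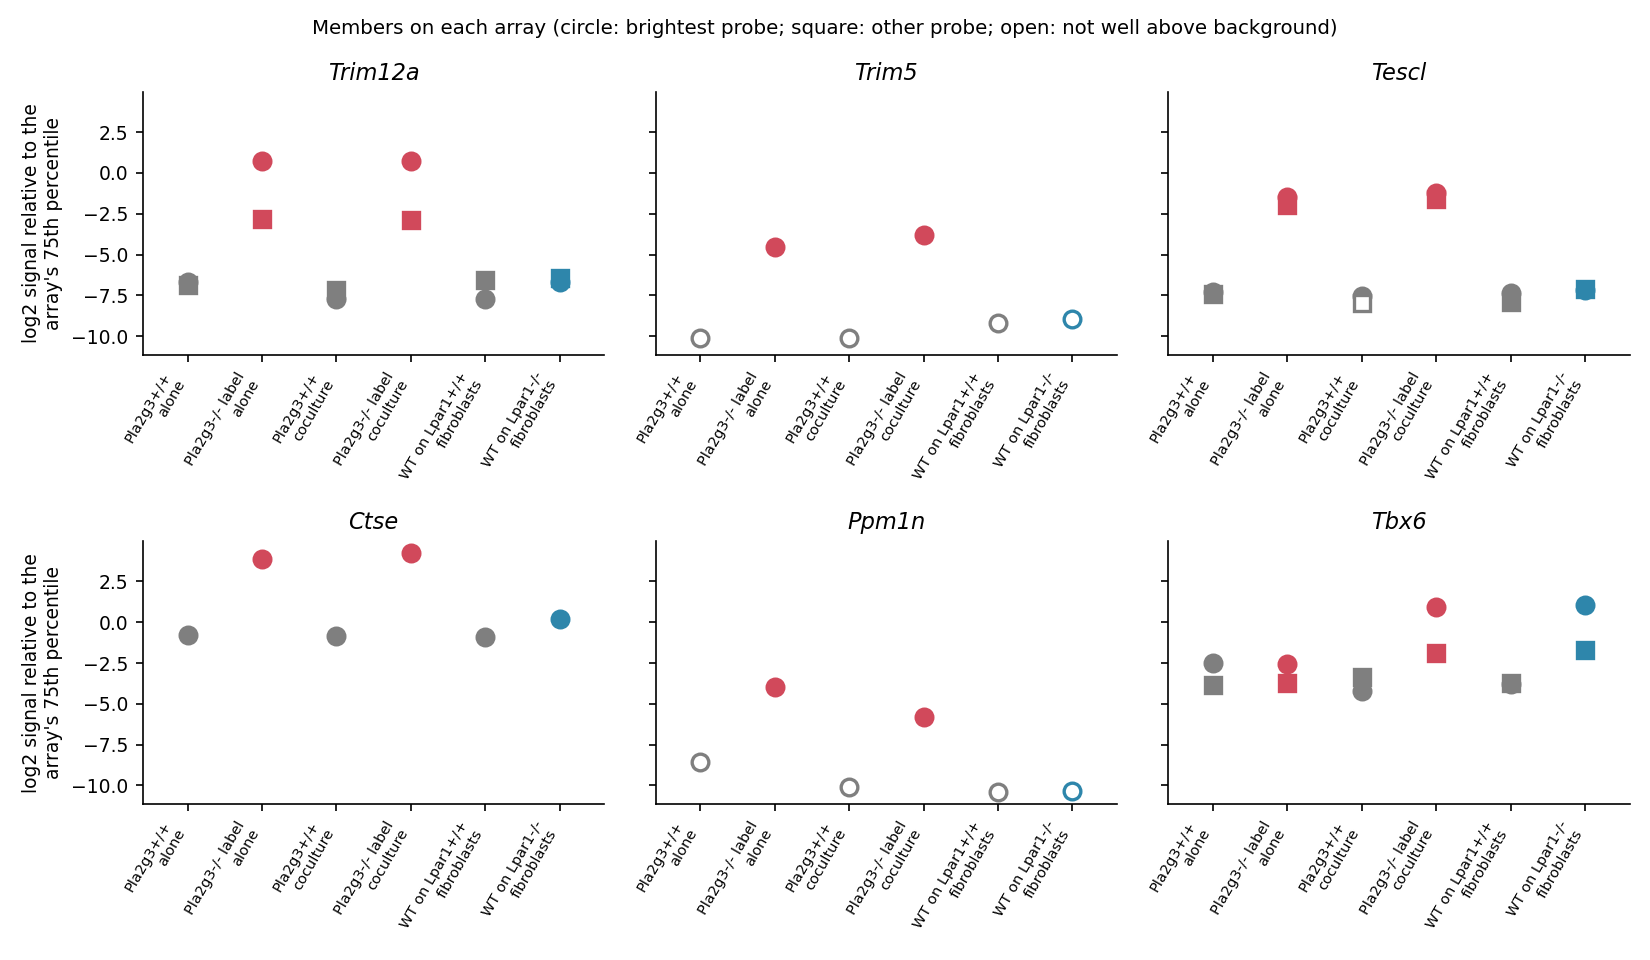
Level of each member's probes (log2 signal relative to the array's 75th percentile) on the 6 arrays, with red for the arrays labelled Pla2g3-/-, blue for Lpar1-/- fibroblasts and grey for the others. Trim12a, Trim5, Tescl, Ctse and Ppm1n stand apart on both red arrays, whereas Tbx6 is high on 1 red array and on the blue array; open symbols are not well above background.

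Trim12a showed the widest separation of the 20184 genes ordered further on. Its brightest probe had levels of -6.67 (Pla2g3+/+) and 0.73 (labelled Pla2g3-/-) without fibroblasts, of -7.74 and 0.72 in coculture, and of -7.71 and -6.66 for wild-type mast cells on Lpar1+/+ and Lpar1-/- fibroblasts. Both labelled arrays therefore lay near the 75th percentile of all spots, and the other 4 lay far below it. The difference was 169-fold without fibroblasts (log2 7.40, error 0.25 from the scanner software's spot error) and 353-fold in coculture (log2 8.46, error 0.35). Against the other wild-type coculture, a comparison that uses the same labelled array, it was 347-fold. There 6 of 6 members were higher, where 9.33% of 24112 genes were, and 0 were lower, against 11.8%. Nothing is read from this count either, because the members were picked on that labelled array.

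The other Trim12a probe gave smaller differences. It read -6.86 and -2.79 without fibroblasts, -7.18 and -2.90 in coculture, and -6.59 and -6.42 with wild-type mast cells. The differences were 16.8-fold and 19.5-fold. The probes thus disagreed by about 10-fold or more in the size of the difference (169-fold against 16.8-fold, and 353-fold against 19.5-fold), while both put the 2 labelled arrays above the other 4.

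Trim5 was well above background on the 2 labelled arrays and on none of the other 4. Its probe read -10.09 and -4.53 without fibroblasts, -10.13 and -3.78 in coculture, and -9.22 and -8.97 with wild-type mast cells. The signal was at least 11.8-fold higher without fibroblasts and at least 19.4-fold higher in coculture. The gap between the probes of Trim5 and Trim12a was 36.1 kb.

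The start regions of these neighbours are shown because both genes were high on the same arrays and the sequences are largely identical. RefSeq promoter windows (GRCm38.p6, 250 bases before to 50 after the annotated start) were found for 4 of the 6 members, Trim12a, Trim5, Ppm1n and Tbx6. The windows printed below are on the minus strand. The windows of Trim5 and Trim12a share 1 run of 241 identical bases, and the neighbour Trim12c shares a run of 71 bases with each. In the lines below the capitals mark the 1 match to the interferon-stimulated element letters GAAANNGAAA, searched on both strands and here on the reverse strand.
Trim12a, chr7:104315446-104315745: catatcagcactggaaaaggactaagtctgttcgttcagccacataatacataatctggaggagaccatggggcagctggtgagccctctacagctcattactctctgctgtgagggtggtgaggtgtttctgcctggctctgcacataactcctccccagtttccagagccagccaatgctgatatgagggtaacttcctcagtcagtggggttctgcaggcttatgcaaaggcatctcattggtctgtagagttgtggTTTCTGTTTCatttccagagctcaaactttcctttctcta
Trim5, chr7:104288057-104288356: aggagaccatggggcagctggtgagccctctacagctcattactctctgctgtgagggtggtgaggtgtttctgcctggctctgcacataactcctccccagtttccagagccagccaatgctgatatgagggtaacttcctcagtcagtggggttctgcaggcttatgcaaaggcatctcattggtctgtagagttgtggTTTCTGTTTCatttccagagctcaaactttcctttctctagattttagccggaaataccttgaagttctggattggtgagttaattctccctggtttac
Trim12c, chr7:104353300-104353599: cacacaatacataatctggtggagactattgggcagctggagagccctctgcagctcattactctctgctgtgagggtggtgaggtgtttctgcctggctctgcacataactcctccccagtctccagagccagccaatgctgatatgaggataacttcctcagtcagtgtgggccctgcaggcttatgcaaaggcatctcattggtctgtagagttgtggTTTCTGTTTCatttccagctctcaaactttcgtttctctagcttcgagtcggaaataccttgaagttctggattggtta

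The match began 10 bases after the annotated start of Trim12a, 49 bases before that of Trim5 and 29 bases before that of Trim12c. These letters were found in 1131 of 32851 RefSeq windows of the same length (3.44%). They were also found in the windows of the cluster genes Trim34a, Trim30a and Trim30d, and not in those of Trim34b, Trim6, Ppm1n or Tbx6. A match is a description of the letters and not a site.

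Trim12c, whose start region is so similar, did not follow Trim12a. Its brightest probe read -0.13 and -0.07 without fibroblasts, -0.44 and 0.65 in coculture, and -0.45 and 0.24 on Lpar1+/+ and Lpar1-/- fibroblasts. The label difference was 0.06 on the log2 scale without fibroblasts and 1.09 in coculture. Its other probes gave 0.13 and 0.30 without fibroblasts, and 0.87 and 1.16 in coculture.

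Among the other TRIM genes of the cluster and its relatives, 16 were measured. Without fibroblasts 0 were higher and 0 lower (median difference 0.09, against 0.00 over all genes). In coculture 8 of 16 were higher and 0 lower (median 0.97, against -0.08 over all genes), with Trim34a at 2.86, Trim34b at 1.71, Trim30d and Trim21 at 1.63 each, and Trim30a at 1.46. On Lpar1-/- compared with Lpar1+/+ fibroblasts 7 of 16 were higher and 0 lower (median 0.74), with Trim34a at 2.46 and Trim34b at 1.66. Trim34a, Trim34b, Trim30a and Trim30d of the cluster were thus higher on both the labelled coculture array and the Lpar1-/- array. Trim12c and Trim6 were higher on the first alone (0.69 and 0.01 on Lpar1-/- fibroblasts), and Trim30c (-0.30, and -0.52 or lower) on neither. Trim30b was at least 0.26 and at least 0.79 higher, bounds that cannot show whether it passed 2-fold. Without fibroblasts none of the 16 passed 2-fold between the mast cell genotypes, with Trim30b taken at a bound (at least 0.52 higher). There Trim12a and Trim5, which were picked on the label, already stood apart.

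Of 13 signalling partners of TRIM5, 0 were past 2-fold without fibroblasts, and in coculture the ubiquitin-conjugating enzyme variant Ube2v2 was higher (1.95) and 0 were lower. Of 24 interferon response genes, 0 were past 2-fold without fibroblasts, with Ifit3 taken at a bound (-0.72 or lower). In coculture 8 were higher, among them Oasl2 (2.30) and Rsad2 (1.79), and 5 were lower, among them Ifit1 (-2.46) and Ifit3 (-1.81 or lower). The list moved in both directions, with a median of 0.24.

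Tescl was measured by 2 probes that gave like values. The brightest, printed 10 times on each array, read -7.28 and -1.46 without fibroblasts, -7.52 and -1.22 in coculture, and -7.34 and -7.15 with wild-type mast cells. The difference was 56.7-fold without fibroblasts and 78.7-fold in coculture. Over its repeat spots the standard deviation was 0.04 on each labelled array (9 spots each, after outlier spots were dropped) and 0.09 to 0.29 on the other 4 (10 spots each). No spot of the labelled arrays was below -1.53 and no spot of the others above -6.88. Repeat spots measure the array and not the culture.

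**Figure D2:**
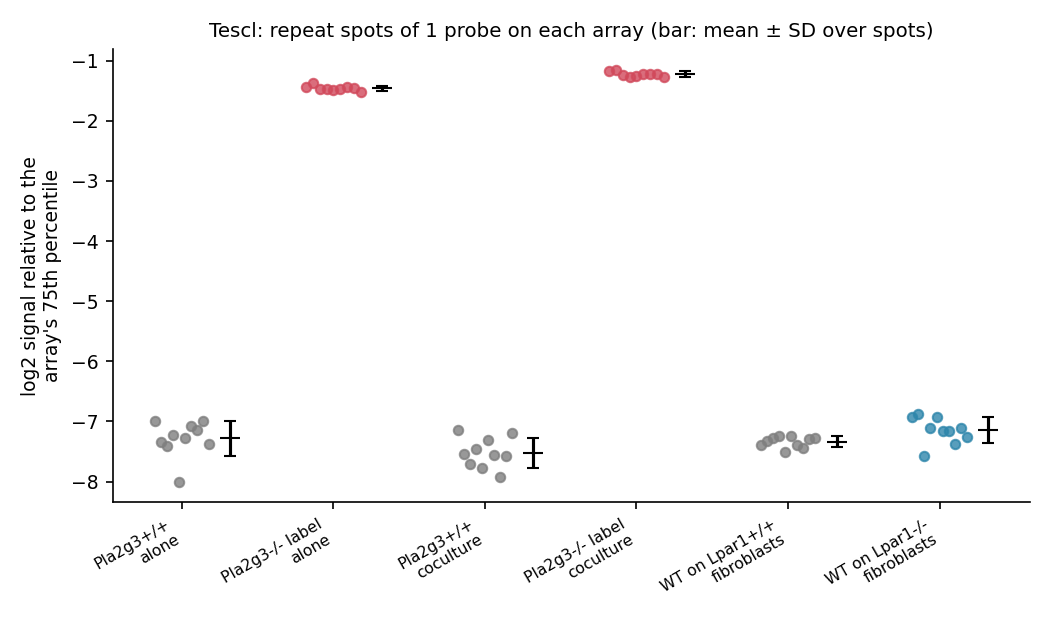
Every repeat spot of the brightest Tescl probe (log2 signal relative to the array's 75th percentile) on each of the 6 arrays, with the mean and standard deviation over spots in black. The spots of the 2 arrays labelled Pla2g3-/- lie between -1.53 and -1.15, and those of the other 4 arrays at or below -6.88.

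The other Tescl probe read -7.42 and -1.94 without fibroblasts, a 44.6-fold difference. In coculture it was not well above background on the Pla2g3+/+ array (-7.95) and read -1.62 on the labelled one, at least 80.7-fold higher. Of 13 other genes of the calcineurin and calcineurin B homologous list measured without fibroblasts, 0 were past 2-fold. In coculture 11 were measured, and Nfatc2, a transcription factor that calcineurin activates, was higher (1.08) while Tesc, tescalcin itself, was lower (-1.04). Tescl, which was picked on the label, was the 1 gene of its list past 2-fold in both comparisons, so this is a description.

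Ctse was well above background on all 6 arrays. It read -0.79 and 3.87 without fibroblasts, -0.87 and 4.23 in coculture, and -0.93 and 0.21 on Lpar1+/+ and Lpar1-/- fibroblasts. The difference was 25.3-fold without fibroblasts and 34.5-fold in coculture, each with a spot error of 0.20 on the log2 scale. The Pla2g3+/+ arrays with and without fibroblasts and the Lpar1+/+ array were nearly level, and the Lpar1-/- array lay between them and the labelled arrays.

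Of 12 other aspartic proteases, 0 were past 2-fold without fibroblasts, and in coculture the pepsinogen gene Pga5 was higher (2.79) and 0 were lower. Of 11 class II antigen processing genes, 0 were higher and 3 lower without fibroblasts, namely Ctss (-1.46), Ctsl (-1.08) and H2-Eb1 (-1.01). In coculture 0 were higher and 3 lower, Ctss (-3.63), Ifi30 (-1.40) and H2-Ab1 (-1.36). Ctss encodes cathepsin S, a cysteine protease of class II processing, and moved against Ctse in both comparisons.

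Markers of other cell types were not higher where Ctse was high without fibroblasts, and several were lower. Of 17 neutrophil and eosinophil markers 0 were higher and 13 lower (median -3.66), and their summed level relative to the 75th percentile was 98.8 on the Pla2g3+/+ array and 55.4 on the labelled one. Csf3r, which was level (-0.08), made up most of both sums, and without it they were 43.2 and 2.96. Epx and Ear1 were not well above background on the labelled array. Of 12 macrophage and dendritic cell markers 0 were higher and 4 lower (summed level 21.9 and 19.8), and C1qa was not well above background on either array. In pooled RNA fewer cells of a type and less RNA per cell cannot be told apart.

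In coculture the marker lists moved in more than 1 direction. Neutrophil and eosinophil markers had 2 higher and 4 lower of 14. Their summed level was 56.8 and 56.0 on the Pla2g3+/+ and labelled arrays, and 4.53 and 2.31 without Csf3r, which differed by 0.04. Macrophage and dendritic cell markers had 2 higher and 4 lower of 12, with Cx3cr1 (3.30) and Itgax (2.93) higher and Mrc1 (-5.71), Mpeg1 (-3.58), Lyz2 (-2.37) and Cd68 (-1.89) lower. Their summed level was 15.5 and 54.2, a rise carried by Cx3cr1, without which it was 10.4 and 4.31. Mrc1 and C1qa were not well above background on the labelled array. Fibroblast markers had 0 higher and 8 lower of 12 (summed level 35.3 and 15.2). On Lpar1+/+ and Lpar1-/- fibroblasts the summed level was 15.04 and 38.18 for macrophage and dendritic cell markers, 10.2 and 2.87 without Cx3cr1, and 36.6 and 30.7 for fibroblast markers. Lum was not well above background on any coculture array, and Postn on 3 of the 4. The part of these cells in the members' coculture differences was not tested.

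Some markers of the mast cells themselves were lower under the label in coculture, and 9 of 14 were within 2-fold. Under the label 0 of 14 were higher and 5 lower, namely the tryptase genes Tpsab1 (-3.60) and Tpsb2 (-1.21), Rgs13 (-2.49), the histidine decarboxylase gene Hdc (-2.29) and the chymase gene Mcpt4 (-1.13). On Lpar1-/- compared with Lpar1+/+ fibroblasts 0 were higher and 5 lower, and without fibroblasts 0 were higher and 1, Tpsab1, lower (-1.68). Kit differed by 0.35 and Fcer1a, a chain of the IgE receptor, by 0.13 under the label in coculture. The part of these changes in the members' values was not tested.

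Ppm1n, like Trim5, was well above background on the 2 labelled arrays and on none of the other 4. It read -8.54 and -3.95 without fibroblasts, -10.08 and -5.82 in coculture, and -10.42 and -10.36 with wild-type mast cells. The signal was at least 17.6-fold higher without fibroblasts and at least 4.75-fold higher in coculture. Of 18 other phosphatases of its family, 0 were past 2-fold without fibroblasts, and in coculture Ppm1l was higher (1.38) and 0 were lower.

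The sizes of the dim members depend on how the background is taken. With normexp background correction, which adds an offset of 50 to every signal, the log2 difference without fibroblasts was 4.90 for Trim12a, 3.07 for Tescl, 1.11 for Ppm1n and 0.99 for Trim5. In coculture it was 5.17, 3.51, 0.71 and 1.69 in that order. Trim5 without fibroblasts and Ppm1n in coculture were thus under 2-fold with it, and the direction was the same for all 4.

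Tbx6 had another pattern. Its brightest probe read -2.47 and -2.55 without fibroblasts, -4.24 and 0.94 in coculture, and -3.77 and 1.07 on Lpar1+/+ and Lpar1-/- fibroblasts. The 2 high arrays were the labelled coculture and the wild-type mast cells on Lpar1-/- fibroblasts, and the labelled array without fibroblasts was as low as its Pla2g3+/+ partner. The difference was 36.3-fold under the label in coculture and 28.6-fold on Lpar1-/- compared with Lpar1+/+ fibroblasts, which share no array.

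The other Tbx6 probe had the same 2 high arrays at smaller sizes. It read -3.82 and -3.70 without fibroblasts, -3.39 and -1.86 in coculture, and -3.72 and -1.69 on Lpar1+/+ and Lpar1-/- fibroblasts. The differences were 2.88-fold in coculture and 4.07-fold between fibroblast genotypes. Of 10 other T-box genes measured without fibroblasts, 0 were past 2-fold. In coculture 1 of 11 was higher, Tbx22 (1.59), and 3 were lower, among them Tbr1 (-2.25). Of 9 presomitic mesoderm genes measured in coculture 0 were higher, and 1, Mesp2, was lower (-1.63).

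The nearest genes on 1 side of Tbx6 had its pattern. Ypel3, of the yippee-like family, lay 5.16 kb from the Tbx6 probe and differed by 0.24 without fibroblasts, 2.30 in coculture and 2.47 between fibroblast genotypes. Gdpd3, a lysophospholipase D of the glycerophosphodiester phosphodiesterase family, lay 14.5 kb away and differed by 0.01, 2.51 and 2.92. Mapk3, the next gene on that side, differed by 0.19, 0.20 and 0.10. On the other side Ppp4c (0.67 kb), a phosphatase catalytic subunit, differed by 0.03, -0.51 and -0.68, and the glycolytic enzyme gene Aldoa by 0.06, 0.22 and -0.13.

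**Figure D3:**
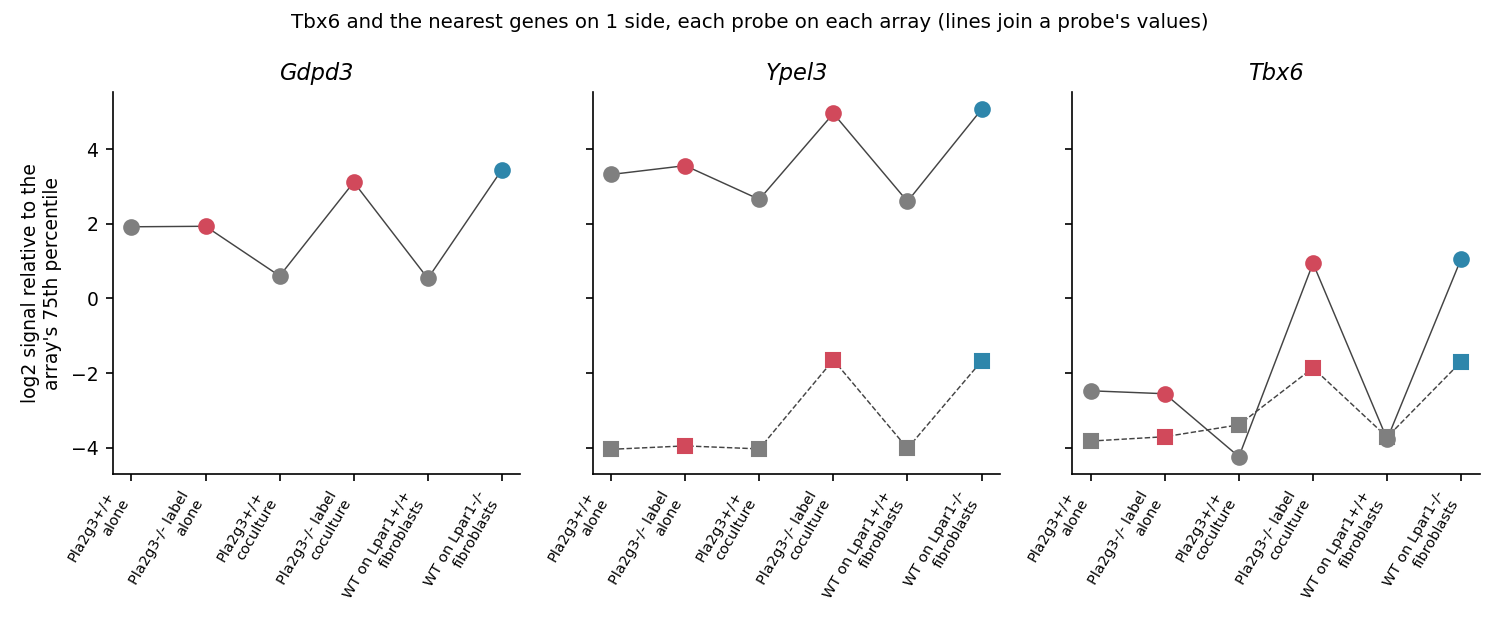
Level (log2 signal relative to the array's 75th percentile) of every probe of Gdpd3, Ypel3 and Tbx6 on the 6 arrays, each line joining the values of 1 probe. All 5 probes are highest on the coculture labelled Pla2g3-/- (red, right) and on Lpar1-/- fibroblasts (blue), with both arrays without fibroblasts level with each other.

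Coculture came with smaller differences than the label for each member measured except Tbx6. Nothing is read from that order, because the members were picked on label differences of these same arrays. Between Pla2g3+/+ cells without and with fibroblasts 4 members were measured, of which 0 were higher, against 13% of 22603 genes, and 2 were lower, against 7.51%. These were Tbx6 (3.40-fold) and Trim12a (2.10-fold). Ctse differed by -0.08 and Tescl by -0.24 on the log2 scale. Neither lower value held on a gene's other probe, where Trim12a differed by -0.32 and Tbx6 by 0.43, and with the mean of a gene's probes 0 members were lower.

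Between the labelled arrays all 6 were measured, Trim5 and Ppm1n being well above background on no other array. Tbx6 was higher (11.3-fold, against 11.4% of 22340 genes called higher) and Ppm1n lower (3.64-fold, against 7.28% called lower). Trim12a differed by 0.00 in size, Tescl by 0.24, Ctse by 0.37 and Trim5 by 0.74 on the log2 scale. With normexp the Ppm1n change was -0.72, under 2-fold. Of the genes past 2-fold the share that was higher in coculture was 63.4% for Pla2g3+/+ and 61.0% for the labelled cells, and 48.8% and 50.2% after quantile normalization.

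Between wild-type mast cells on Lpar1-/- and Lpar1+/+ fibroblasts 4 members were measured, of which 3 were higher, against 11.3% of 24533 genes, and 0 lower, against 8.81%. These were Tbx6 (28.6-fold), Ctse (2.20-fold) and Trim12a (2.08-fold). Tescl differed by 0.19 on the log2 scale, and Trim5 and Ppm1n were not well above background on either array. The Trim12a value rested on a signal near the background, and its other probe differed by 0.16. In the same comparison 10 of 15 neutrophil and eosinophil markers were higher (summed level 51.4 on Lpar1+/+ and 66.8 on Lpar1-/- fibroblasts, and 4.96 and 14.1 without Csf3r), and their part in the members' values was not tested. The 2 wild-type cocultures differed 2-fold in 0 of 4 members, where 0.791% of 24012 genes were higher and 0.167% lower on Lpar1+/+ fibroblasts.

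Genes were then ordered by how cleanly both labelled arrays stood above the other 4, as the lower labelled array minus the highest of the other 4. Only the 20184 genes well above background on both labelled arrays were ordered, which Trim5 and Ppm1n were through the arrays where they are high. Of these 15 had a gap of at least 2-fold upward (0.0743%). Trim12a was 1st (gap 7.38 on the log2 scale), Tescl 2nd (5.69), Ctse 3rd (3.66), Trim5 4th (3.54) and Ppm1n 7th (2.25). Nothing is read from these places, because the members were picked as higher on these labelled arrays. Tbx6 had a gap of -3.62. With normexp 3 members kept a gap of 2-fold, the exceptions besides Tbx6 being Trim5 and Ppm1n.

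The genes most like the members by this gap over the 6 arrays were 4930557J02Rik (3.37), Pla2g3 itself (3.01), D4Ertd617e (2.21), the X-linked transcript ENSMUST00000115553.2 (2.18), and Cyp4f13, a fatty acid hydroxylase of the cytochrome P450 family (2.06). Gm20824 (1.41), Cyp4f17 (1.34), AK139938 (1.21), Fbxo41 (1.09) and Dnah8, an axonemal dynein (1.08), followed. The opposite pattern was led by Nkpd1 (-2.82), Wfdc21 (-2.46), 4930550L24Rik (-2.41), the kinase subunit gene Camk2b (-2.31) and the secreted matrix protein gene Tgfbi (-2.17). Of 20351 genes 35 had such a gap of at least 2-fold downward (0.172%).

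**Figure D4:**
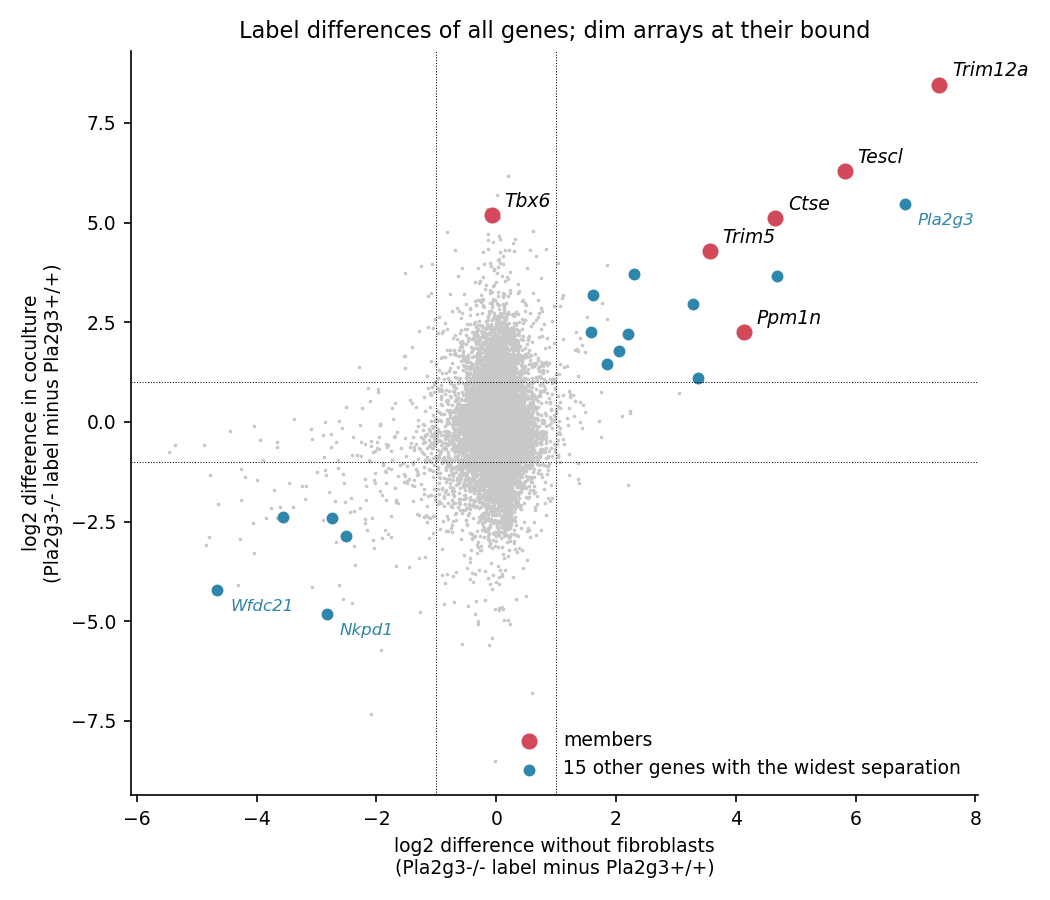
Log2 difference of the array labelled Pla2g3-/- from the Pla2g3+/+ array without fibroblasts (horizontal) and in coculture (vertical) for 21110 genes, with members in red and the 15 other genes with the widest separation in blue; dotted lines mark 2-fold. Trim12a lies farthest out at 7.40 and 8.46, and Tbx6 lies at -0.08 and 5.18 among genes that differed in coculture alone.

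Position was not part of the rule, and 5 of 6 members lie on chromosome 7. Among 21110 genes measured in both genotype comparisons 36 were at least 2-fold higher in both (0.171%) and 139 lower (0.658%). Of the 36, 7 (19.4%) lay on chromosome 7, where 8.23% of all these genes lie and 8.63% of the 139 lay. Of these 7, 4 were the picked members Trim12a, Trim5, Tescl and Ppm1n. Chromosome 17 held 13.9% of the 36 against 5.07% of all these genes, and chromosome 1 held 11.1% against 5.41%. At 4-fold 10 genes remained (0.0474%), 5 of them members, and 4 of the 10 lay on chromosome 7, each of these 4 a member. The members were chosen with such results known, so these shares are a description.

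The chromosome 7 members are spread over it. The probes of Ppm1n and Tescl lie 5.26 Mb apart, that of Tescl 86.3 Mb from Trim12a, and that of Tbx6 22.5 Mb from Trim12a. The other chromosome 7 genes higher in both comparisons were Psg16 (1.52 without fibroblasts and 2.63 in coculture), BC026762 (1.49 and 1.74) and Igsf23 (1.05 and 1.20). Their probes lie between positions 17718741 and 26796721 (mm9), the stretch that also holds Ppm1n and Tescl.

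Without fibroblasts the share of neighbours past 2-fold was 15% around Ppm1n and 1.2% to 3.1% around each other member. The latter lie near the shares over all genes given below, so nothing is read from them. Within 1 Mb of a member's probe 268 other genes were measured, of which 4.85% were past 2-fold without fibroblasts and 21.3% in coculture. Over all genes tested 0.414% were higher and 1.58% lower without fibroblasts, and 9.1% and 10.4% in coculture. For Trim12a 1 of 39 neighbours was higher and 0 lower without fibroblasts, for Tescl 0 and 1 of 52, for Ctse 1 and 0 of 32, and for Tbx6 0 and 1 of 85. Of these neighbours 0 were past 2-fold the same way in both comparisons. In coculture 13 of the Trim12a neighbours were higher and 0 lower. The counts were 11 and 1 for Tescl, 1 and 3 for Ctse, 12 and 4 for Tbx6, and 3 and 9 for Ppm1n.

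Ppm1n was the member whose surroundings differed most without fibroblasts. Of 60 neighbours 2 were higher and 7 lower, and 1 was higher and 5 lower in both comparisons. The higher one was Igsf23. The lower ones were Nkpd1, 248 kb away (-2.82 without fibroblasts and -4.82 in coculture), Bcl3, a nuclear partner of NF-kappaB (-1.21 and -2.39), Qpctl (-1.10 and -2.40), Nectin2 (-1.04 and -2.36) and Ckm. For Ckm, the muscle creatine kinase gene, the values were bounds (-1.76 or lower and -1.17 or lower). Nkpd1 read -2.69 and -5.51 without fibroblasts, -1.02 and -5.84 in coculture, and -1.07 and -1.54 with wild-type mast cells, so its labelled arrays were both below the other 4.

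Some of the nearest neighbours had differences of their own. Next to Ppm1n, Rtn2 was higher without fibroblasts (1.40) and not in coculture (0.50), Vasp differed by 0.84 and 0.74, and Opa3 by 0.41 and 0.10. Fosb, a Fos family transcription factor 26.0 kb away, differed by 0.60 and -6.80, and by -6.50 on Lpar1-/- compared with Lpar1+/+ fibroblasts. Next to Tescl, the zinc finger genes Zfp94 and Zfp61 differed by 0.96 and 0.62 without fibroblasts and by 2.90 and 2.48 in coculture, while Lypd5 (-0.09 and 0.74) and Kcnn4 (-0.80 and 0.55) were within 2-fold. Next to Ctse, the late endosomal GTPase gene Rab7b, 38.0 kb away, was higher without fibroblasts (1.71) and level in coculture (0.04). It was the 1 gene of 32 neighbours of Ctse past 2-fold without fibroblasts.

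**Figure D5:**
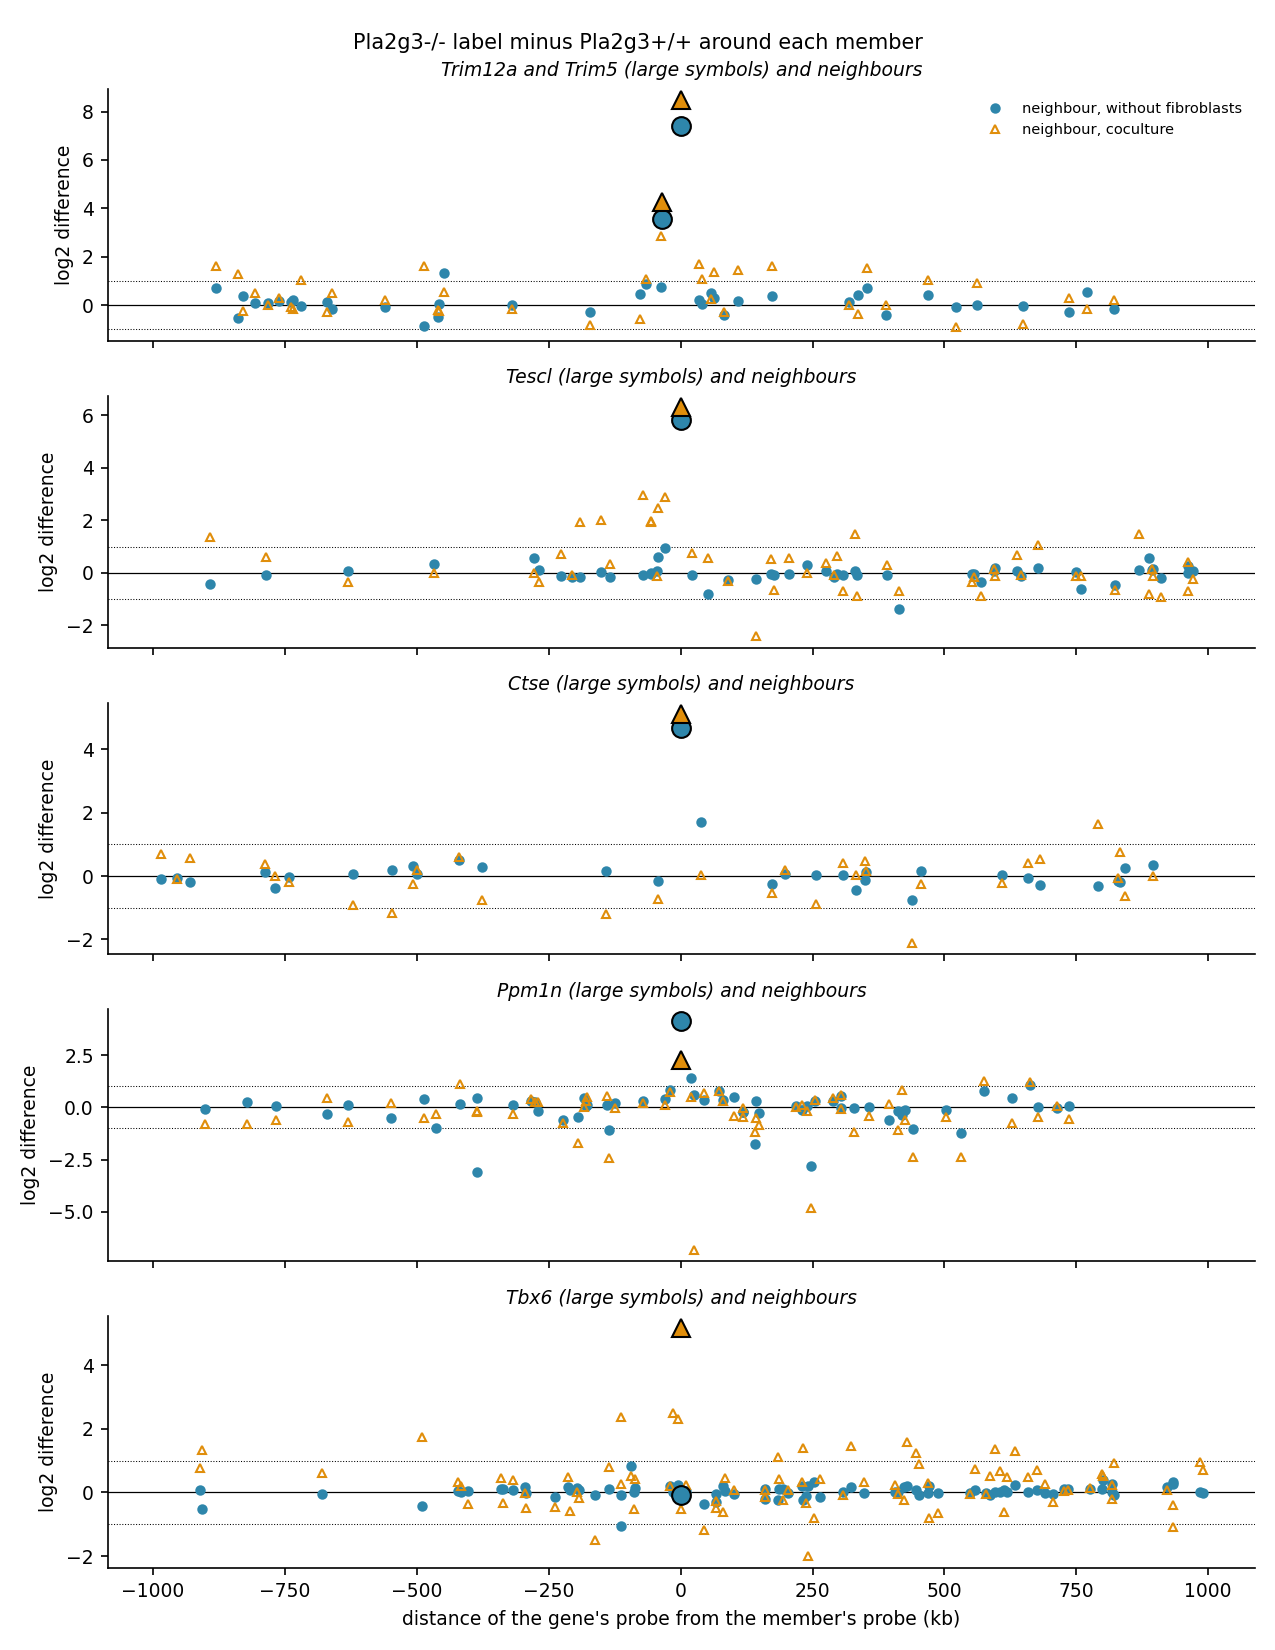
Log2 difference of the array labelled Pla2g3-/- from the Pla2g3+/+ array for genes within 1 Mb of each member, by the distance between probes in kb, without fibroblasts (blue circles) and in coculture (orange triangles), with members as large symbols and dotted lines at 2-fold. Around Trim12a and Trim5 13 of 39 neighbours are at least 2-fold higher in coculture and 0 lower, against 9.1% and 10.4% of all genes. Without fibroblasts 1 is higher, against 0.414%. Around Ppm1n 5 of 60 are lower in both comparisons, against 0.658%.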

How the data were processed

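Each of 6 groups had 1 array (Agilent 60-base probes, 43020 noncontrol spots). Per the file headers, the authors' scanner software (Agilent Feature Extraction 12.1.1.1) turned scans into a spot intensity, with background subtraction and a surrogate for dim spots, so low values rest partly on that surrogate. The deposited value table, a signal on a linear scale, equalled the processed intensity divided by 1 constant per array (column medians 0.0380 to 0.0534), which settled its scale and direction. It held no centring of genes.

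Levels are log2 of the processed intensity minus the array's 75th percentile. Spots marked as outliers (84 to 115 an array) were left out and repeat spots averaged, which kept 39416 of 39429 probes, and no spot was saturated. The probe with the highest mean stood for a gene, and 7568 of 29581 genes had several. Accessions named 33002 spots through the RefSeq table of GRCm38.p6. A difference was taken where at least 1 array was well above background. Gaps had stricter filters, given with them. Other settings were normexp and quantile normalization (limma 3.58.1), the deposited table, the mean of a gene's probes, outlier spots kept, other filters and 4-fold. There are no replicates, so precision is limited by the number of arrays. The members and lists were chosen with earlier results of these data known. Named genes were the members, Pla2g3, the 10 and 5 genes with the widest gaps, some of the 3 nearest neighbours on each side, neighbours past 2-fold in both genotype comparisons, and list members past 2-fold. Some of these were picked after their values were seen.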

Additional observations from a re-analysis of the deposited data

Results flagged for a closer look

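Tbx6 changed in opposite directions with coculture in the mast cell genotypes. On its brightest probe the log2 difference of the coculture from the culture without fibroblasts was -1.77 for Pla2g3+/+ cells and 3.50 for cells labelled Pla2g3-/-, with 1 array each. The other probe gave 0.43 and 1.84, so the opposite direction rested on 1 probe. The difference between the genotypes was not tested.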

How the results depend on the processing

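No paired analysis was possible because each group had 1 array and the labels carry no replicate numbers. With normexp 3 members kept a gap of 2-fold in place of 5, 1 member in place of 2 was lower in Pla2g3+/+ coculture, and 0 in place of 1 in the labelled coculture. With the mean of a gene's probes 0 were lower in Pla2g3+/+ coculture. Genes higher in both genotype comparisons numbered 36, and 17 with normexp, 71 without a filter on dim probes and 10 at 4-fold. Genes lower in both numbered 139, and 38, 338 and 39 under the same settings. For single members 39 values moved by more than the spot error and 131 did not, and 0 of these changed direction while past 2-fold. The Trim12a difference on Lpar1-/- fibroblasts was 0.17 with normexp and 0.61 with the mean of probes. The median difference of all genes in coculture went from -0.08 to 0.12 with normexp, and that of the Pla2g3+/+ coculture change from 0.13 to -0.02 with quantile normalization. Higher calls among the genes past 2-fold in the labelled coculture against the other wild-type coculture were 44.1%, and 54.5% with quantile normalization. Trim5 and Ppm1n have no level on 4 arrays beyond a bound, so their sizes are limited by background.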

Other observations

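Tbx6 belonged to a group of genes that were high on the labelled coculture and on Lpar1-/- fibroblasts and low on the other 4 arrays, a pattern defined after its values were seen. By the lower of these 2 arrays minus the highest of the other 4, Tbx6 had a gap of 3.42 on the log2 scale. It was 3rd of the 21159 genes well above background on both of the 2 arrays, of which 468 had a gap of at least 2-fold. The genes around it in that order were Mcpt1, a chymase of mucosal mast cells (3.87), Ankrd34b (3.77), the epidermal envelope gene Lce1g (3.27), the unnamed probe A_55_P1998702 (2.87) and the mitochondrial carrier gene Slc25a27 (2.77). Mcpt1 read -7.17 and -7.48 without fibroblasts, -2.85 and 1.02 in coculture, and -3.23 and 1.53 on Lpar1+/+ and Lpar1-/- fibroblasts.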
